A study of Mus musculus with 2 samples.

Results

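The genes described here are 41 mouse genes for interleukins, interleukin receptors and interferon receptors, without the interleukin-1 family, taken by symbol from the 49585 genes of the deposited count table: 15 genes for secreted cytokines or their subunits and 26 for receptor chains. All 41 symbols matched a row. RNA was sequenced from CD11b+ cells, a mix of myeloid cells that carry the integrin Itgam, pulled with magnetic beads from tumours that mouse pancreatic cancer lines had formed under the skin. Both groups were mice of genotype NRP2f/fCSF1R-iCRE on a BL6 background, that is, Nrp2 was floxed and an inducible Cre was driven by the Csf1r promoter, active in monocytes and macrophages. The controls carried these alleles too. The test group (Test NRP2 KO) received tamoxifen daily once tumours could be felt, while no injection of control mice is named, so effects of tamoxifen and of the deletion cannot be told apart. Tumours were taken after 15 days, and each group is 1 library of RNA pooled from 3 animals. The labels give no age.

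Interleukins are secreted proteins by which immune cells instruct each other. Their receptors, like those for interferons, are assembled from several chains, and many chains are shared between cytokines: the common gamma chain Il2rg serves interleukins 2, 4, 7, 15 and 21, Il6st (gp130) serves interleukin 6 and its relatives, and Il10rb serves interleukin 10. The chains bind Janus kinases (JAKs), which phosphorylate STAT transcription factors, and SOCS proteins are induced in turn and damp the signal. In tumours, macrophages and dendritic cells are known sources of interleukins 10, 12, 23 and 27.

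With 1 library per group there is no replicate check, so no p-value was computed. Libraries held 64153676 counted reads (control) and 68554172 (knockout). Levels are CPM, read counts relative to the TMM-scaled library size, and levels of different genes are compared as CPM per kb of merged exons. Each ratio carries a 95% exact interval for counting error only, on reads divided by an estimate of the reads each captured fragment gave, 47 in the control and 24 in the knockout library. A count of 0 allows up to 3 fragments, which is 141 reads (2.15 CPM) in the control and 72 reads (1.08 CPM) in the knockout library. Nrp2 itself had 9686 and 1017 reads, 9.70-fold lower in the knockout library (6.94 to 13.8). The marker lists of the expected cells were read deeply: 9 macrophage genes summed to 14174 CPM in the control and 14613 CPM in the knockout library. Lymphocyte markers were present too and were lower in the knockout library, 10 T cell genes at 189 and 62.4 CPM, 8 NK cell genes at 134 and 45.1 CPM and 6 B cell genes at 146 and 17.0 CPM. In bulk RNA, fewer cells of a type and less RNA per cell cannot be told apart.

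Among the 41 genes, cytokine genes were mostly lower in the knockout library while receptor genes went both ways. 39 of them reached 50 reads in total; 11 of these were lower by 2-fold or more (28.2%) and 3 higher by as much (7.69%). Of all 14420 genes at that depth, 14.7% were lower and 10.9% higher by 2-fold or more. The interval excluded a ratio of 1 for 11 genes that were lower (28.2%, against 11.0% of all genes) and 6 that were higher (15.4%, against 12.7%). All 5 interleukin genes whose interval excluded 1 were lower (Il10, Il12b, Il27, Ebi3 and Il6), out of 13 measured. Among receptors 6 were lower (Il2rg, Il2rb, Il21r, Il4ra, Il10ra and Ifngr2) and 6 higher (Il15ra, Il7r, Il6ra, Il6st, Ifngr1 and Il17ra), out of 26. The median log2 ratio, knockout over control, was -0.19 for the 39 genes, -0.82 for the interleukins and -0.08 for the receptors, beside -0.01 for all genes. Only the intervals of Il10 and Il15ra lay wholly past 2-fold, 1 gene in each direction, which held for 1.03% of all genes as lower and 0.853% as higher.

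Depth sets how much these counts can carry. Among the 27 genes with at least 1000 reads, 4 were lower by 2-fold or more (14.8%, against 4.0% of 9054 genes) and 1 was higher (3.70%, against 4.53%). The 3 genes at 0 in one library, Il7, Il13 and Il17rc, owe the size of their log2 ratio to the prior count. Their intervals include 1. With the empty library held at its floor, 9 genes were lower and 2 higher by 2-fold or more. Il21, with 42 reads, and Il11, with none, did not reach 50 reads.

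**Figure D1:**
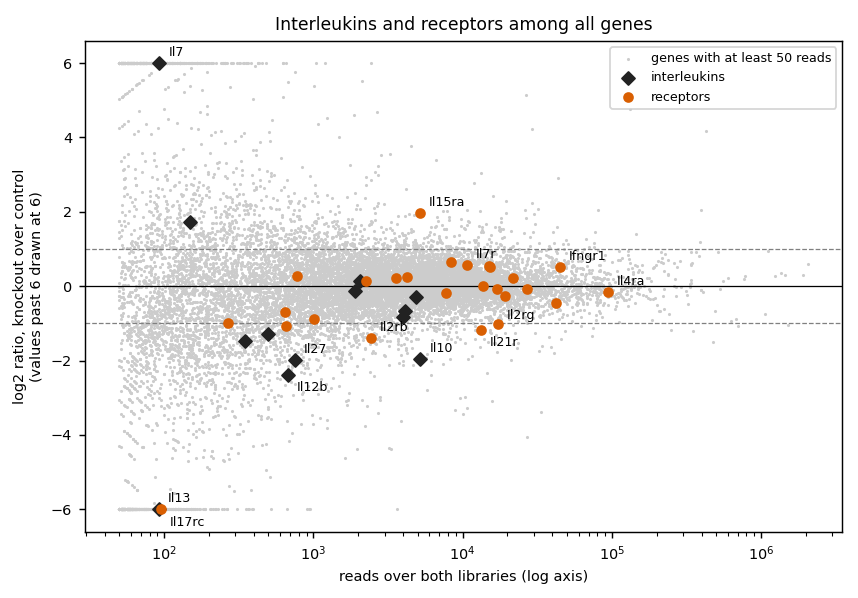
Log2 ratio (knockout over control library, y axis) against reads over both libraries (log x axis) for all 14420 genes that reached 50 reads (grey), with interleukins as black diamonds and receptors as orange circles. Il10 and Il15ra lie far from 0 at a depth where most genes do not, and Il7, Il13 and Il17rc sit at the edges because one library had 0 reads.

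Il10, an anti-inflammatory cytokine of macrophages and regulatory T cells (ENSMUSG00000016529, GRCm38 chromosome 1), had 4132 control reads and 1084 knockout reads. That is 62.9 and 16.2 CPM, 3.88-fold lower in the knockout library (2.68 to 5.69). By level per kb it was the fifth of the 41 genes in the control library, at 48.0 CPM per kb, and ranked 16 in the knockout library, at 12.4. Its receptor is made of a ligand-binding chain, Il10ra, and the shared chain Il10rb. Il10ra had 24308 and 17950 reads, 1.38-fold lower (1.23 to 1.54), and stayed among the 3 highest genes of the group in both libraries. Il10rb had 8652 and 8349 reads, ratio 0.948 (0.790 to 1.14). The ligand thus differed by more than either receptor chain, and its interval does not overlap theirs.

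The interleukin-12 family pairs subunits: Il12a with Il12b makes interleukin 12, Il23a with Il12b makes interleukin 23, and Il27 with Ebi3 makes interleukin 27. Il12b, the shared subunit, had 565 reads in the control and 110 in the knockout library, 5.23-fold lower (1.67 to 20.1). Il27 had 601 and 154 reads, 3.97-fold lower (1.43 to 12.3), and its partner Ebi3 had 2525 and 1457 reads, 1.76-fold lower (1.20 to 2.59). These 3 subunits were lower in the knockout library beyond counting error. Il23a had 350 and 146 reads, a ratio of 0.410 with an interval from 0.116 to 1.38. Il12a had 34 and 115 reads, less than 1 estimated fragment in the control library, and its interval runs from 0.294 to 525. Il27 shares 103 exonic bases, 10.1% of its exons, with Apobr on the opposite strand, which had 8185 and 7187 reads, and the sources do not say if reads were counted by strand.

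Most markers of conventional dendritic cells and monocytes were lower too, while macrophage markers went both ways. The 7 conventional dendritic cell markers summed to 885 and 386 CPM, 2.29-fold lower in the knockout library, and 5 of the 7 were lower beyond counting error. Among them Ccr7, the homing receptor of migratory dendritic cells, had 10078 and 3840 reads. The intervals of Xcr1 (111 and 0 reads) and Flt3 (ratio 0.714, 0.402 to 1.29) include 1. The 5 monocyte markers summed to 1062 and 449 CPM, with 4 of 5 lower and Ly6c2 higher. Macrophage markers were lower for 5 of 9 and higher for 4 of 9, with sums that differed by 1.03-fold. The part of these cells in the cytokine values was not tested.

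Of the receptor chains for this family that are not shared with interleukin 6, none had an interval that excluded 1. Il12rb1, shared by the receptors for interleukins 12 and 23, had 1065 and 1200 reads (ratio 1.11, 0.661 to 1.91). Il12rb2, the signalling chain for interleukin 12, had 350 and 429 reads (1.20, 0.488 to 3.31). Of its exonic bases 40.0% are also exons of Serbp1 on the opposite strand, which had 15714 and 12782 reads, so its reads are uncertain. Il23r, the second chain for interleukin 23, was at 73 and 0 reads. Il27ra, the ligand-specific chain for interleukin 27, had 441 and 214 reads (0.477, 0.168 to 1.34).

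**Figure D2:**
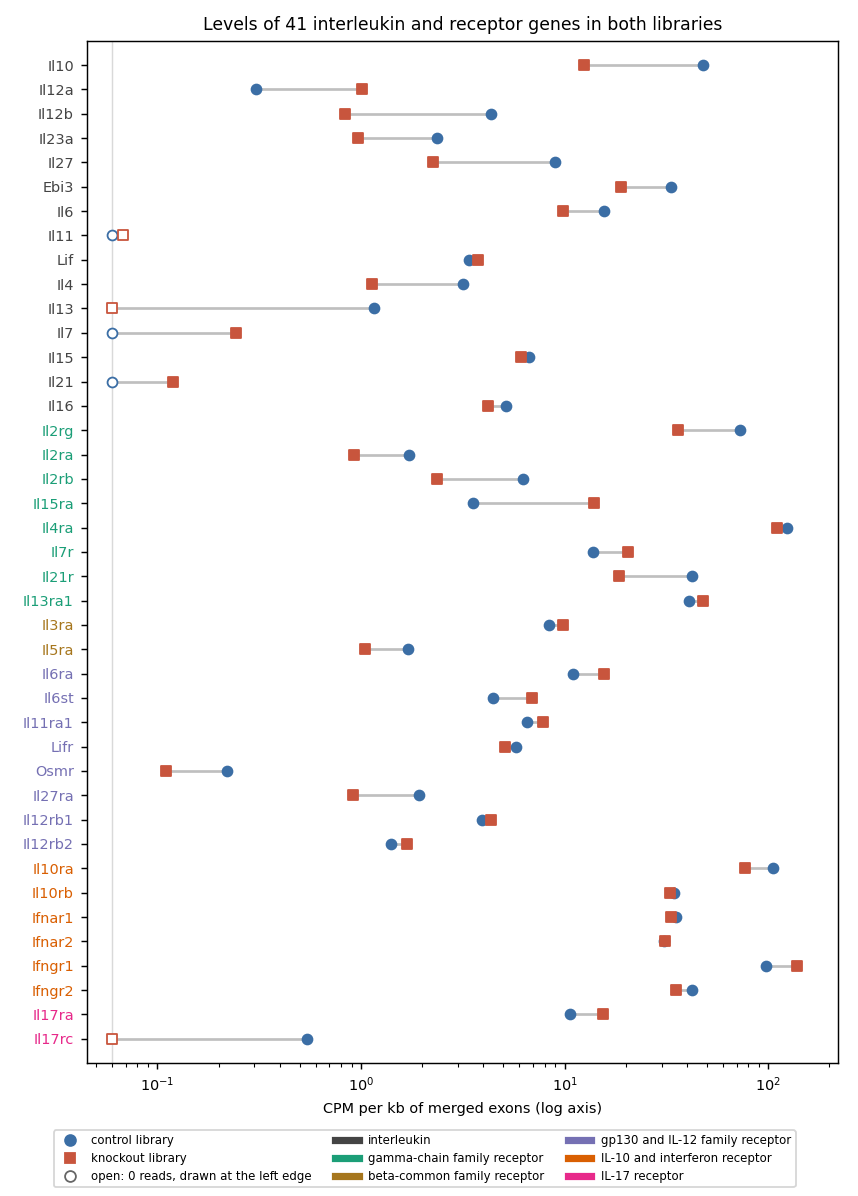
Level of each of the 41 genes as CPM per kb of merged exons (log x axis) in the control (blue circles) and knockout library (red squares), with gene names coloured by receptor family or as interleukins and open symbols for 0 reads. Il10, Il12b and Il27 move to the left in the knockout library and Il15ra to the right, while Il4ra, Il10rb, Ifnar1 and Ifnar2 hardly shift.

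Il6, an inflammatory cytokine of macrophages and fibroblasts, had 2490 reads in the control and 1598 in the knockout library, 1.59-fold lower (1.08 to 2.31). Its receptor chains went the other way. Il6ra, which binds interleukin 6, had 6246 and 9081 reads, 1.43-fold higher in the knockout library (1.17 to 1.75). Il6st, the signal-transducing chain, had 3235 and 5161 reads, 1.57-fold higher (1.19 to 2.09). Ligand and receptor thus differed in opposite directions, each beyond counting error. Il6st is also the second chain for interleukin 27, whose 2 subunits were lower. Fibroblast markers, of which 3 of 6 were lower beyond counting error, summed to 323 and 194 CPM, and their part in the Il6 value was not tested.

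Other cytokines that signal through Il6st were read unevenly. Lif, leukaemia inhibitory factor, had 973 and 1096 reads (ratio 1.11, 0.645 to 1.96) and its receptor Lifr had 4091 and 3664 (0.879, 0.672 to 1.16). Il11 had 0 reads in both libraries, while its receptor Il11ra1 had 1922 and 2335 reads (1.19, 0.820 to 1.76); this gene has a near-identical copy in the mouse genome, so its reads are uncertain. Oncostatin M (Osm), a relative of Lif that is not among the 41 genes, was the most abundant ligand of this group at 310 CPM per kb in the control and 413 in the knockout library, 1.33-fold higher (1.24 to 1.43). Its receptor chain Osmr had only 176 and 90 reads (0.502, 0.0874 to 2.89). Per kb Osmr stood at 0.221 and 0.111 CPM, far below its ligand, and Il11ra1 was read with no reads of Il11.

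Promoter windows show where some of these genes start and which known motifs lie there. RefSeq promoters on GRCm38.p6 were matched for 30 of the 41 genes, and the 250 bases before the start are used. The windows of Il12b, Ebi3 and Il6 are shown, 3 of the 5 interleukin genes that were lower beyond counting error. Il10 and Il27 were lower too, but no window is shown for them. The window of Il15ra is shown because that gene had the largest increase beyond counting error. All 4 are on the plus strand and are written 5′ to 3′ in lower case, with matches to the searched motifs in capitals, at chr11:44399813-44400062, chr17:55952373-55952622, chr5:30012864-30013113 and chr2:11705043-11705292.
Il12b: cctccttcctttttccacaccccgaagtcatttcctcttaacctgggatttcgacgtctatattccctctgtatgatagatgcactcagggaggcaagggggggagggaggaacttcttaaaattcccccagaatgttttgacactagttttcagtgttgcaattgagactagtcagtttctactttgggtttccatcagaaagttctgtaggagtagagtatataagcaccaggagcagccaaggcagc
Ebi3: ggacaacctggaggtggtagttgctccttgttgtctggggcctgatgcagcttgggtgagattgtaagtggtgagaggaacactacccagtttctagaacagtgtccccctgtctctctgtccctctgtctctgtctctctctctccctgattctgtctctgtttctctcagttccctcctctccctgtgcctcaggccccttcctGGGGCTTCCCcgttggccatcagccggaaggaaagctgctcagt
Il6: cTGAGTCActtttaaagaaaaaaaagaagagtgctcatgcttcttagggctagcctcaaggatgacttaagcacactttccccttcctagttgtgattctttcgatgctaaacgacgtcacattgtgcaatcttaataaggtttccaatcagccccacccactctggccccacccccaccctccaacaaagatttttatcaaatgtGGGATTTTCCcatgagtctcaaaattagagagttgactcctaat
Il15ra: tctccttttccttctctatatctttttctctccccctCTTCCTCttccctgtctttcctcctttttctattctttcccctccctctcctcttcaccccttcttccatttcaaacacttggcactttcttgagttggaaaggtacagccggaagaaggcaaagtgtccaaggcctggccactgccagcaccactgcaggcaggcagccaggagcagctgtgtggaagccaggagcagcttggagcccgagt

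Searched on both strands were the interferon-stimulated response element (GAAA, any 2 bases, GAAA), the STAT-binding GAS element TTCNNNGAA, the NF-kB site, the AP-1 site TGANTCA and the PU.1 core GAGGAAG, and on the plus strand the TATA box TATAAA. An NF-kB match lay 44 to 35 bases before the start in both Il6 and Ebi3. Il6 also had an AP-1 match, at 249 to 243 bases before the start, and Il15ra a PU.1 core on the minus strand, at 213 to 207 bases. Il15ra has a second RefSeq window, not shown, with an AP-1 match 30 to 24 bases before its start. The Il12b window holds none of these letters. The AP-1 and GAS patterns read the same on both strands. NF-kB matches were in 15.8% of the 38 windows of the group and 7.25% of all 32851 windows, and AP-1 matches in 15.8% and 6.75%. The GAS element was in 7.89% and 7.02% and the interferon-stimulated element in 2.63% and 2.98%. PU.1 cores were in 5.26% and 10.6%, and TATA boxes in 2.63% and 7.59%.

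Among receptors whose interval excluded 1, the 4 that differed by 2-fold or more, Il15ra, Il2rb, Il21r and Il2rg, are all of the common gamma chain family. Il2rg, the shared chain, had 11436 reads in the control and 5734 in the knockout library, 2.03-fold lower (1.69 to 2.44), and was the fourth highest of the 41 genes in the control library at 72.9 CPM per kb. Il2rb, shared by interleukins 2 and 15, had 1761 and 679 reads, 2.64-fold lower (1.58 to 4.47). Il21r, the chain for interleukin 21, had 9190 and 4118 reads, 2.27-fold lower (1.84 to 2.81). These 3 chains, each with at least 1000 reads over both libraries, are with Il10 the 4 genes at least 2-fold lower at that depth. Il2ra, the high-affinity chain for interleukin 2, had 648 and 355 reads, with an interval from 0.241 to 1.21.

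Lymphocytes are known to express all of these chains, and their markers were lower too. T cell markers were 3.03-fold lower by their sum, with 9 of 10 lower beyond counting error, against 11.0% of all genes. Cd4 alone gave 100 of the 189 CPM in the control and 35.1 of the 62.4 CPM in the knockout library. NK cell markers were 2.97-fold lower by their sum, with 5 of 8 lower beyond counting error. The NK cell markers Ncr1 (39 and 47 reads, ratio 1.18), Klrb1c (315 and 181) and Eomes (82 and 13) had intervals that include 1. Of the defining T cell genes, Cd3e had 688 and 161 reads, and Nkg7, a cytotoxic granule gene, had 1418 and 375. Of the B cell genes, Pax5 had 56 and 0. Il2rg and Il21r are also expressed by myeloid and dendritic cells. The part of lymphocytes in these values was not tested.

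Other chains of the same family did not follow. Il7r, the receptor for interleukin 7 on T cells and some myeloid cells, had 4244 reads in the control and 6412 in the knockout library, 1.48-fold higher (1.16 to 1.90), while the T cell markers were lower. Il15ra, which holds interleukin 15 on the surface of presenting cells, had 1036 and 4132 reads, or 15.8 and 61.7 CPM, 3.92-fold higher (2.51 to 6.41). It moved from rank 27 to rank 15 of the 41 genes by level per kb. Its ligand Il15 had 991 and 921 reads, a ratio of 0.913 with an interval of 0.523 to 1.63. So within the interleukin 15 system the presenting chain was higher, the signalling chains Il2rb and Il2rg were lower, and the ligand was not distinguishable between libraries at this depth.

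**Figure D3:**
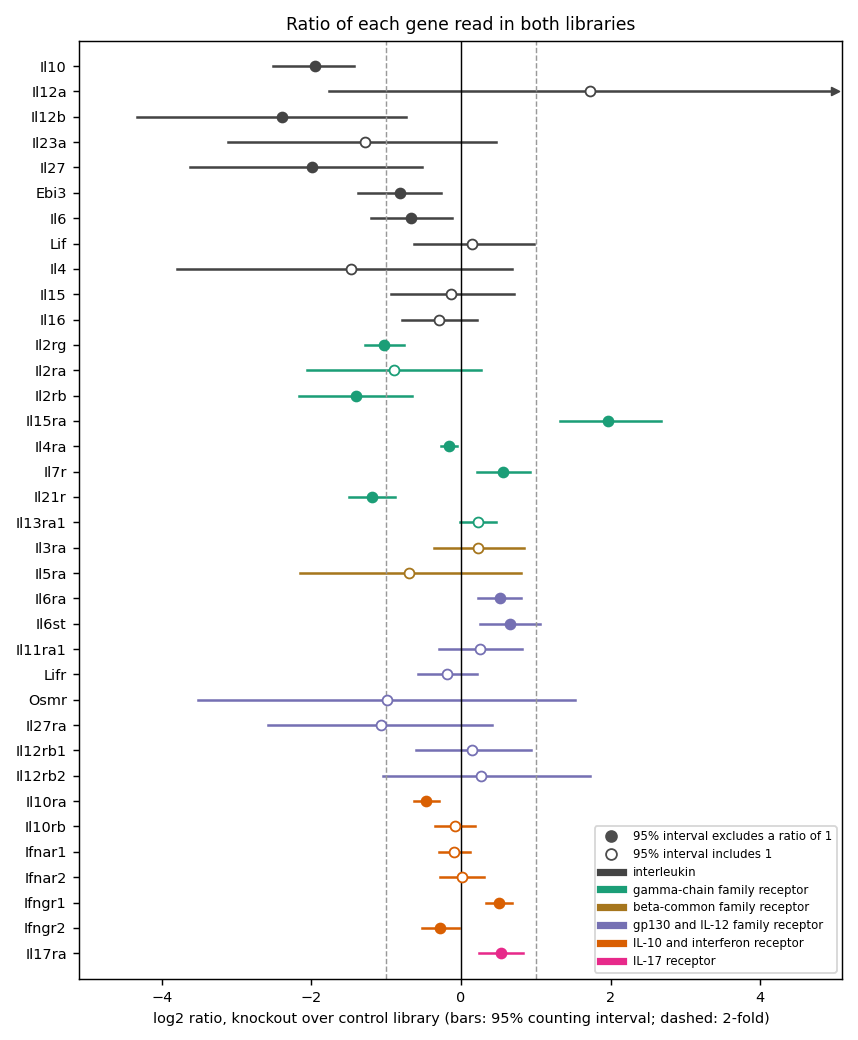
Log2 ratio (knockout over control library) of the genes read in both libraries with its 95% counting interval; filled symbols have intervals that exclude a ratio of 1, dashed lines mark 2-fold and colours mark families. Il10 and Il15ra lie wholly past the dashed lines on opposite sides, and the interval of Il12a runs off the axis.

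Il4 and Il13, the cytokines of type 2 immunity, were close to the detection limit. Il4 had 256 reads in the control and 94 in the knockout library (ratio 0.361, 0.0720 to 1.61), above the floors of 141 and 72 reads. Il13 had 92 and 0, each within the floor of its library. The receptor chains of Il4 and Il13 were abundant. Il4ra, the chain that binds interleukin 4, had 49036 and 44772 reads and was the highest of the 41 genes in the control library at 124 CPM per kb. It was 1.12-fold lower in the knockout library (1.03 to 1.20). Il13ra1, which pairs with Il4ra for interleukin 13, had 9978 and 11850 reads (1.17, 0.991 to 1.38). The decoy receptor Il13ra2 had 0 and 13 reads. Il4ra and Il13ra1 were thus abundant in both libraries and each differed little between them, beside ligands of few reads. Il2rg, which also serves interleukin 4, was abundant too but 2.03-fold lower in the knockout library (1.69 to 2.44).

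Other ligands of this family were at or near 0 as well. Il7 had 0 reads in the control and 93 in the knockout library, and Il21 had 0 and 42. Neither allows a fold, since the floor of the control library is 141 reads. Of the 30 partner genes fixed as a list, 11 had 0 reads in both libraries, among them Il2, Il3, Il5, Il9, Il17a, Il17f and Il22. Of the 16 partner genes measured, 5 were higher beyond counting error (Osm, Il18bp, Csf2rb2, Crlf2 and Il20rb) and 1 lower (Cd4). Of all genes, 12.7% were higher and 11.0% lower by this rule. Il20rb had 3 and 349 reads, less than 1 estimated fragment in the control library, with an interval that starts at 1.67. Its size is thus not known.

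Receptors for interleukins 3, 5, 16 and 17 gave few differences. Il3ra had 1634 and 1954 reads (ratio 1.17, 0.780 to 1.80), and Il5ra, known from eosinophils, had 399 and 251 (0.618, 0.226 to 1.74), while the 5 eosinophil markers, of which Epx was at 0 in both libraries, summed to 258 and 77.1 CPM, a difference whose part in Il5ra was not tested. Csf2rb, the signalling chain for both, had 39373 and 42243 reads (1.05, 0.970 to 1.15). Il17ra, the shared chain of interleukin 17 receptors, had 6056 and 8933 reads, 1.45-fold higher (1.18 to 1.78), whereas its partner Il17rc was at 95 and 0 reads. Il16, a chemoattractant that binds CD4, had 2655 and 2211 reads (0.818, 0.581 to 1.16), and 15.3% of its exonic bases overlap Stard5 on the other strand, at 2131 and 2152 reads. Cd4 had 6578 and 2346 reads, 2.86-fold lower (2.19 to 3.74).

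All 4 interferon receptor chains differed by less than 2-fold. For type I interferons, Ifnar1 had 13815 reads in the control and 13257 in the knockout library (0.942, 0.817 to 1.09) and Ifnar2 had 6730 and 6910 (1.01, 0.822 to 1.24). The direction of Ifnar2 turned under other library scalings. Ifngr1, the binding chain for interferon gamma, had 18345 and 26536 reads, 1.42-fold higher in the knockout library (1.26 to 1.60), and was the highest of the 41 genes there at 139 CPM per kb. Ifngr2, the second chain, had 10507 and 8847 reads, 1.21-fold lower (1.02 to 1.43). The 2 chains of the interferon gamma receptor therefore differed in opposite directions, both by less than 2-fold.

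The interferon ligands themselves were shallow. Ifng, made by T and NK cells, had 558 and 267 reads (0.470, 0.188 to 1.16), beside T and NK cell marker lists that were lower by their sums. Ifnb1, the beta interferon gene, had 9 and 124 reads, less than 1 estimated fragment in the control library, with an interval that starts at 0.427.

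Several of the 41 genes are neighbours in the genome, within 200 kb of each other, and neighbours did not always move together. On chromosome 16, Ifnar2, Il10rb, Ifnar1 and Ifngr2 lie side by side, and their ratios were between 0.827 and 1.01. On chromosome 2, Il2ra and Il15ra are 12097 bases apart, with ratios of 0.538 and 3.92 whose intervals do not overlap. On chromosome 7, Il4ra and Il21r are 23955 bases apart, with ratios of 0.897 and 0.440, whose intervals do not overlap either. Il4 and Il13 on chromosome 11, 12655 bases apart, both had few reads.

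Downstream of the receptors, genes of JAK-STAT signalling were more often lower than higher. Of 28 genes, all measured, 10 were lower and 2 higher beyond counting error, with a median log2 ratio of -0.10. Of all genes with at least 50 reads, 11.0% were lower and 12.7% higher. That is not a match in depth, and deeper genes have narrower intervals. At least 1000 reads were reached by 27 of the 28 genes, but by only 9054 of all 14420. The share of all genes at matched depth was not computed. Jak3, the kinase that binds Il2rg, had 5075 and 3222 reads, 1.60-fold lower (1.23 to 2.08), next to the 2.03-fold lower Il2rg. Jak1 (ratio 1.10, 0.972 to 1.25) and Jak2 (0.915, 0.789 to 1.06) had intervals that include 1. Tyk2, which serves the receptors for interleukin 12 and type I interferon, was 1.30-fold lower (1.05 to 1.62).

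Stat4, which carries interleukin 12 signals in T and NK cells, had 1038 and 170 reads, 6.22-fold lower in the knockout library (2.58 to 17.1). Stat3, the main transducer of interleukins 6 and 10, had 21275 and 23827 reads (1.10, 0.983 to 1.23), and Stat6, that of interleukins 4 and 13, had 14500 and 15886 (1.08, 0.938 to 1.24). The intervals of both include 1.

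The inhibitors differed between members. Cish, a STAT5 target in lymphocytes, had 5679 and 2812 reads, 2.06-fold lower (1.58 to 2.67), and Socs5 had 738 and 172, 4.37-fold lower (1.71 to 12.4). Socs2 was 1.67-fold higher (1.23 to 2.29). Socs3, induced by interleukins 6 and 10, was the deepest of these genes with 66441 and 74081 reads, a ratio of 1.09 (1.03 to 1.17). Socs1, an inhibitor of interferon signalling, had 1698 and 2323 reads (1.34, 0.908 to 2.03).

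**Figure D4:**
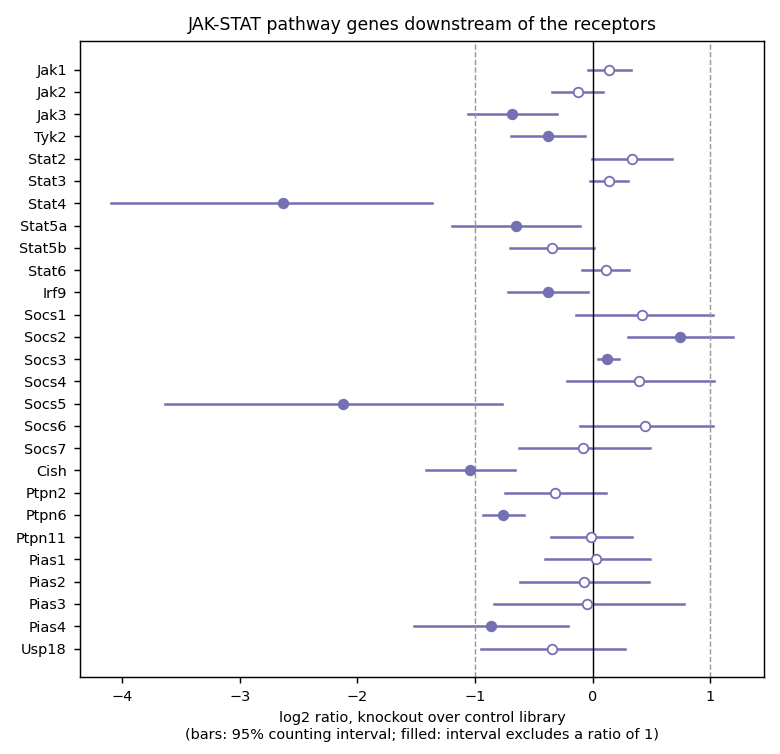
Log2 ratio (knockout over control library) of JAK-STAT pathway genes with 95% counting intervals; filled symbols have intervals that exclude a ratio of 1 and dashed lines mark 2-fold. The interval of Stat4 lies wholly below the 2-fold line, and Stat3 and Stat6 lie near 0.

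**Figure D5:**
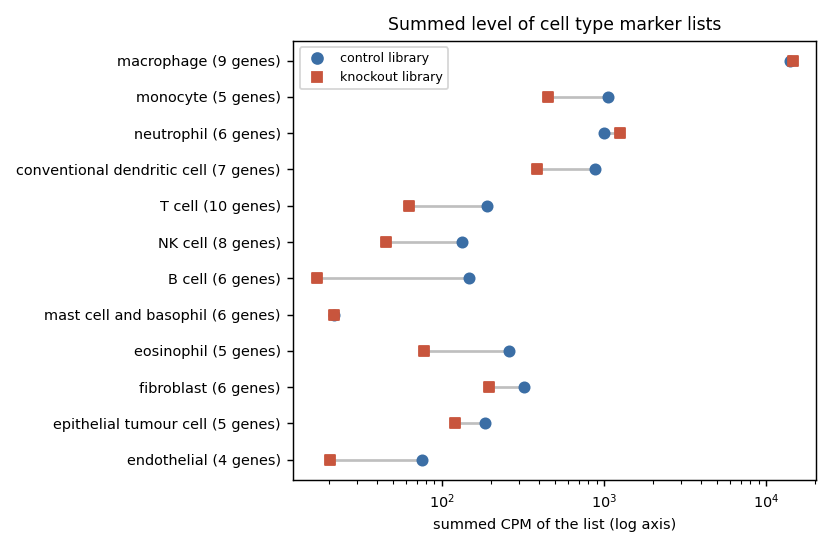
Summed CPM (log x axis) of 12 marker lists in the control (blue circles) and knockout library (red squares), with the number of genes in each list. Sums of lymphocyte, monocyte, dendritic cell, eosinophil and endothelial markers are lower in the knockout library, while macrophage sums of 14174 and 14613 CPM nearly coincide.

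The authors' deposited table also gives a comparison of the 2 libraries. In the authors' deposited table Il10 and Il15ra share the lowest adjusted p of this group. There Il10 has, in the authors' deposited table, a log2 fold change of -1.95 with a standard error of 0.77, and Il15ra one of 1.98 with 0.78. That adjusted p is 0.933 in the authors' deposited table, over 40 of the 41 genes with a value. In the authors' deposited table none of 18864 genes has an adjusted p under 0.05, and 0.331 is the lowest. How a spread was estimated from 1 library per group is not stated.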

How the data were processed

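Per the labels' protocols, RNA was pooled before a stranded TruSeq mRNA library was made. Trimming with cutadapt, HISAT2 and featureCounts on GRCm38 are named in the submitters' processing notes, without versions or options. Per the file headers, the authors deposited whole-number read counts of read 1 per Ensembl gene. The authors' deposited comparison table gives a log2 fold change, its standard error and an adjusted p-value per gene, and does not name its tool. Reads can be PCR copies, since no molecular identifiers are mentioned.

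Symbols, coordinates and exon lengths came from GENCODE M21 (GRCm38), which matched 49326 of 49585 identifiers. TMM factors were computed with edgeR 4.0.16 in R 4.3.3 on genes with at least 50 reads. The control factor was 1.02 and the knockout factor 0.976. A prior of 0.5 counts entered each log2 ratio. The reads per fragment are a median over genes above 4 reads in that library and at 0 in its counterpart (867 and 2114 genes), and every fragment was taken as worth the same. Intervals are exact conditional Clopper-Pearson intervals (scipy 1.17.1). They were tested on data simulated with the same reads per fragment, which cannot test that estimate. The intervals cover neither differences between animals nor uneven amplification.

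All 41 genes are named. For 30 partner genes and 28 JAK-STAT genes, values are given where the gene was at least 2-fold apart with an interval that excludes 1, and for Jak1, Jak2, Jak3, Tyk2, Stat3, Stat6, Socs1, Socs3, Osm, Ifng and Ifnb1. Values of Csf2rb, Il13ra2, Il23r, Socs2 and individual cell markers, the opposite-strand genes, and the names of partners whose interval excludes 1, were chosen after their values were seen, as were the promoter motifs and the windows shown. The genes and lists were chosen with earlier results of these data known. 1 gene of the JAK-STAT list is counted but not reported here. A planned search of receptor protein sequences was not made. Alternatives were DESeq2 1.42.0 size factors, upper-quartile scaling, total counts, another prior, other read minimums and undivided reads.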

Additional observations from a re-analysis of the deposited data

How the results depend on the processing

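Library scaling changed little: total counts shifted every log2 ratio by -0.069, upper-quartile scaling by -0.074 and DESeq2 size factors by 0.012. The 17 genes whose interval excluded 1 were the same 17 under each of these scalings, and Osmr joined the genes at least 2-fold lower (12 in place of 11) under total counts and upper-quartile scaling. Ifnar2, whose interval includes 1, changed sign under both. With at least 1000 counts, 27 genes remained, and 1 was higher and 4 were lower by 2-fold or more. The shares fell too, from 7.69% to 3.70% higher and from 28.2% to 14.8% lower. For all genes they fell from 10.9% to 4.53% and from 14.7% to 4.0%. On undivided reads 38 of the 39 genes had intervals that exclude 1, all but Ifnar2, so the calls depend on how many reads a fragment is taken to give. A prior of 5 counts moved no gene across 2-fold. Holding a library at 0 at its floor was added after the data were seen and gave 2 genes higher and 9 lower. No paired analysis was possible because each group has 1 library. Depth limits Il7, Il11, Il12a, Il13, Il17rc, Il21 and Osmr most.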
